A study of Mus musculus with 6 samples.

Results

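Collagens are the main structural proteins of the extracellular matrix, and their chains are encoded by a large gene family. The 44 collagen genes described here are the protein-coding genes of the mouse annotation whose symbol has the form Col, a type number, a and a chain number, out of 21951 protein-coding genes. For each gene, H3ac (acetylated histone H3) was read in the deposited regions that overlapped the gene body extended by 5 kb on both sides. This, with all coordinates on mm10, took 78 of the 24431 regions, and 32 of the 44 genes had at least 1 region.

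H3ac was profiled by CUT&RUN, in which an antibody brings a nuclease to the marked chromatin and the released fragments are sequenced, in 6 libraries of mouse mesenchymal stem cells (MSCs). Young MSCs came from mice aged 3 to 5 months and Old MSCs from mice aged 18 to 22 months, and neither was treated. OldAcetate MSCs came from mice of that older age range and were kept for 3 days with sodium acetate at 5 mM. Each group had 2 libraries, all cells were kept at 2% oxygen in serum-containing medium, and no genetic change is given for any group. The labels do not say whether the replicates came from separate animals, so that p-values measure only the spread between these libraries.

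All collagens share a triple helix wound from 3 chains. Fibrillar collagens assemble into the banded fibrils that give bone, tendon, skin and cartilage their tensile strength, and the chains of type I collagen are the main product of bone-forming stromal cells. Type IV collagens form the sheet-like network of basement membranes, and the other collagens sit on fibrils, form beaded filaments or short-chain networks, or span the cell membrane. H3ac marks the start sites and enhancers of genes that are open to transcription, and acetate can be turned into acetyl-CoA, from which histones are acetylated. The comparisons therefore ask whether the mark over the collagen genes is at another level in cells of old mice, and how it responds there to acetate.

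The libraries held 2163351 to 3039481 reads, and a collagen region held 4 to 585 reads in a library, with a median of 61.5. Values are RPM, reads relative to the library's total, and levels are compared between genes only as RPM per kb of region. The share of a library's reads that fell in the listed regions was lowest in Old (49.9% and 45.9%), against 64.8% and 57.8% in Young and 57.3% and 56.3% in OldAcetate, so that every comparison of RPM carries this shift. Start sites of all 9 MSC markers lay in regions, with a summed 452 to 635 RPM over the 6 libraries. Of the markers of other cell types, start sites were marked for 3 of 5 chondrocyte genes (Sox9, Acan and Matn3, 50.9 to 62.2 RPM summed), 1 of 5 osteoblast genes (Sp7, 68.9 to 105 RPM), 2 of 6 hematopoietic genes (Spi1 and Csf1r, 27.8 to 44.1 RPM) and 0 of 4 endothelial genes, and Ptprc, Itgam, Bglap and Ibsp had no region. These sums grow with the number and length of the regions, so that they do not rank the lists. Per kb, the start regions of MSC markers ran from 1.88 RPM (Eng) to 3.70 RPM (Cxcl12). Those of the other lists ran from 1.78 RPM (Spi1) to 3.57 RPM (Sox9). Summed marker RPM was highest in Young replicate 1 for the MSC, chondrocyte, osteoblast and hematopoietic lists, and its part in the differences below was not tested. In bulk libraries, H3ac cannot tell fewer marked cells from less mark per cell.

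The promoters of 6 collagen genes are shown to make visible how unlike they are in sequence. Each line gives 200 bases that end just before the start site, from RefSeq on GRCm38.p6, written 5′ to 3′ on the strand of the gene with every CpG dinucleotide in capitals. The first 3 lie inside an H3ac region and the other 3 do not.
Col3a1 (chr1:45311338-45311537, plus strand): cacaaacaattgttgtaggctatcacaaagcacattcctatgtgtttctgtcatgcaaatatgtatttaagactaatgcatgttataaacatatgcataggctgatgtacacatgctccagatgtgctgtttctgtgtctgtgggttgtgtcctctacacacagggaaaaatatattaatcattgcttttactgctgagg
Col5a1 (chr2:27886225-27886424, plus strand): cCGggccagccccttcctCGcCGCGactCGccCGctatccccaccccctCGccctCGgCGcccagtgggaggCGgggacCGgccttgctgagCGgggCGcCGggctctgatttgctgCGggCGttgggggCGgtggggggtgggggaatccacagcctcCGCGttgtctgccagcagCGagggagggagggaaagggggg
Col10a1 (chr10:34389781-34389980, plus strand): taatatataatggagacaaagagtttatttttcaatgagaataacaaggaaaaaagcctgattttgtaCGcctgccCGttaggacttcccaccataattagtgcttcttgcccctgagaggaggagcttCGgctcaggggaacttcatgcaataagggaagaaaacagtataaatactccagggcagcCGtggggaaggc
Col4a6 (chrX:141474077-141474276, minus strand): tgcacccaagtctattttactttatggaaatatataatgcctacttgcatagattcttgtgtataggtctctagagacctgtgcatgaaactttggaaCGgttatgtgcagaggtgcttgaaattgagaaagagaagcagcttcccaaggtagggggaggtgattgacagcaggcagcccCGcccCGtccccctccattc
Col13a1 (chr10:61979109-61979308, minus strand): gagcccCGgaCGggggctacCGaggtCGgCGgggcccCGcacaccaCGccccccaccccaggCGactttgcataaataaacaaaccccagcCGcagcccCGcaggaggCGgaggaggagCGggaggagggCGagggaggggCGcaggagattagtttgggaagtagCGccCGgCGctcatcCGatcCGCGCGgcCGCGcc
Col25a1 (chr3:130180645-130180844, plus strand): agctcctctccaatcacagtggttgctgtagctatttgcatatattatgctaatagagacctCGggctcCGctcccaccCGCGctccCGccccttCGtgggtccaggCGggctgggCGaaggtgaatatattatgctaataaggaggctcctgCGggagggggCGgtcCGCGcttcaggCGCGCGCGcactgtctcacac
These stretches hold 0 CpG in Col3a1, 20 in Col5a1, 4 in Col10a1, 3 in Col4a6, 23 in Col13a1 and 16 in Col25a1. Col3a1, a fibril chain of skin, vessels and stroma, was marked although this stretch holds no CpG. Col13a1 and Col25a1, both transmembrane collagens, had CpG-rich starts and no region.

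In the RefSeq table, 35 of the 44 genes had a window of 300 bases (250 before and 50 after a start), 38 windows in all. The 9 genes without a window, Col1a1, Col2a1, Col4a3, Col5a2, Col9a3, Col12a1, Col14a1, Col22a1 and Col26a1, do not enter these counts. Of these windows, 22 overlapped an H3ac region (57.9%, against 57.6% of the 20150 windows of protein-coding genes). Windows in a region held a median of 12.5 CpG for collagens and 21 for all protein-coding genes. Windows outside regions held a median of 10.5 CpG for collagens and 4 for all protein-coding genes. The medians of marked and unmarked collagen promoters thus lay close together, whereas those of all promoters lay far apart. The ranges in and outside regions overlapped in both sets, with 0 to 37 and 0 to 29 CpG for collagens and 0 to 65 and 0 to 67 CpG for all. Searched on both strands, GGGCGG (the GC box) was in 15 of the 22 collagen windows in a region (68.2%, against 66.5% of all such protein-coding windows) and in 8 of the 16 outside (50%, against 22.3%). TATAAA (the TATA box) was in 5 of the 38 collagen windows (13.2%, against 12.1% of all) and CCAAT in 13 (34.2%, against 37.8%). Windows of Col6a2, Col9a1 and Col18a1 came in pairs, and a CCAAT box can share bases with a GC box read on the other strand.

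**Figure D1:**
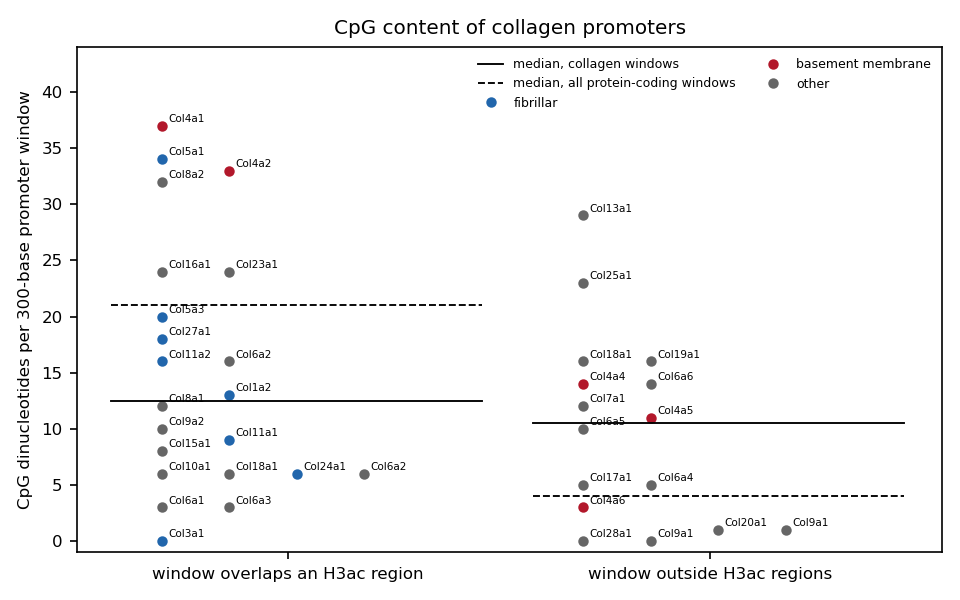
CpG dinucleotides per 300-base promoter window of the collagen genes (vertical axis), split by whether the window overlaps an H3ac region. Points are windows coloured by class, solid lines the collagen medians (12.5 in and 10.5 outside regions) and dashed lines the medians of all protein-coding windows (21 and 4), so that the collagen medians lie closer together than those of all genes.

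Regions lay at 72.7% of the collagen genes, against 64.5% of all protein-coding genes, and 27 collagen genes (61.4%, against 57.2%) had a region within 1 kb of an annotated start site. A longer gene body has more bases that a region can overlap. The median length was 17403 bp in all protein-coding genes, 109689 bp in marked and 140612.5 bp in unmarked collagen genes. The part of length in these shares was not tested. The 78 regions comprised 29 at a start site, 37 inside the gene body, 5 over the gene's end, 6 in the downstream flank and 1 in the upstream flank. Of the 29 start-site regions, 5 lay only at starts inside the gene (in Col4a1, Col12a1, Col28a1 and, with 2 regions, Col18a1), and the outermost starts of Col18a1 and Col28a1 lay in none. An exon was overlapped by 56 regions, and 22 were intronic or flanking.

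The fibrillar class was marked throughout. All 11 fibrillar genes (Col1a1, Col1a2, Col2a1, Col3a1, Col5a1, Col5a2, Col5a3, Col11a1, Col11a2, Col24a1 and Col27a1) had a region at a start site. Their 26 regions covered 410 kb, and a median 43.5% of the gene body lay in regions. Among the 6 basement membrane genes, 4 had regions, which were 11 in number and covered 175 kb, but only Col4a1 and Col4a2 had one at a start site. These chains form the type IV network found in nearly all basement membranes, and their genes lie head to head and share 1 region. Col4a3 and Col4a4, whose chains make the network of the kidney filter, had 2 regions each inside or behind the gene and none at a start. The third head-to-head pair, Col4a5 and Col4a6, had no region.

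The 27 other collagens had 41 regions over 458.5 kb, with 17 genes marked and 14 marked at a start. Among the beaded-filament chains, Col6a1, Col6a2 and Col6a3, which assemble into the common form of type VI collagen, were marked at a start, while Col6a4, Col6a5 and Col6a6 had no region. The fibril-associated collagens were divided as well. Col12a1, Col14a1, Col16a1 and Col9a2 were marked at a start and Col19a1 only inside the gene, whereas Col9a1, Col9a3, Col20a1 and Col22a1 had no region. The short-chain genes Col8a1, Col8a2 and Col10a1 and both multiplexins, Col15a1 and Col18a1, were marked at a start. Of the transmembrane collagens, Col23a1 was marked at a start and Col17a1 only inside the gene. Col7a1, which makes the anchoring fibrils of skin, had 1 region over its end, and Col28a1 had 4 regions.

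The 12 genes without a region were Col4a5, Col4a6, Col6a4, Col6a5, Col6a6, Col9a1, Col9a3, Col13a1, Col20a1, Col22a1, Col25a1 and Col26a1. The nearest region lay 6290 bp from Col9a3 and 766274 bp from Col22a1, the smallest and largest of these gaps. Col9a2 encodes a partner of the Col9a1 and Col9a3 chains in type IX collagen of cartilage, and it alone of the 3 had a region. The table lists regions and not the reads between them, so that a gene without a region has no value here. Marked collagen genes had a median length of 109689 bp and unmarked ones 140612.5 bp.

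**Figure D2:**
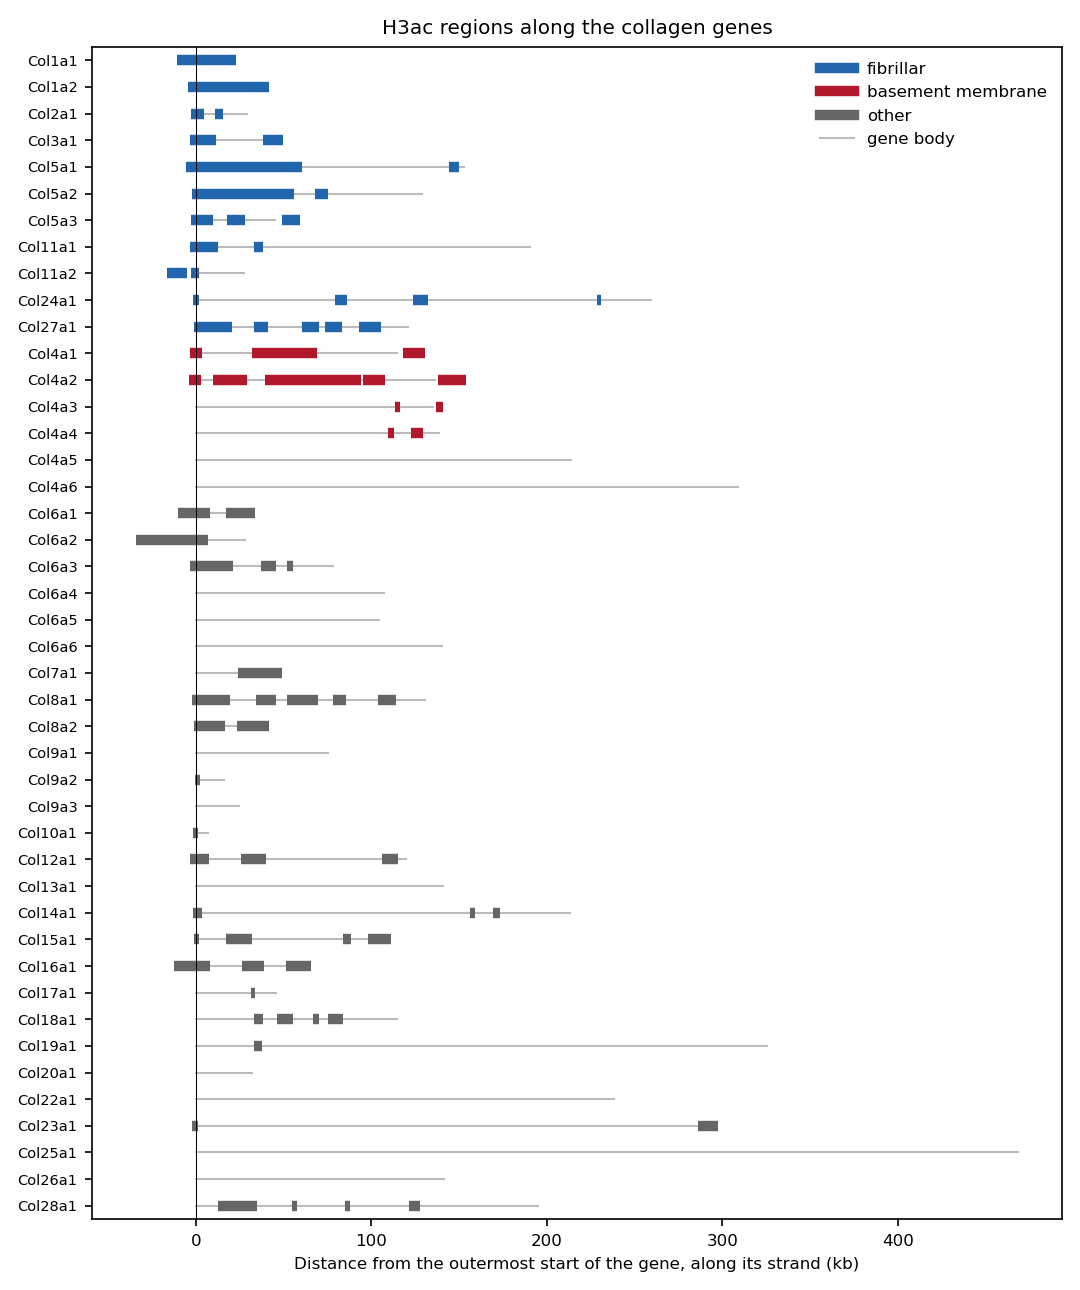
Deposited H3ac regions (thick bars) along the 44 collagen genes (thin lines), with the distance from the outermost annotated start in kb along the gene's strand on the horizontal axis and genes in rows grouped by class. All 11 fibrillar genes carry a bar at the start, while Col4a5, Col4a6 and 10 of the 27 other genes carry none.

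Collagen regions were long rather than dense. Their median length was 10250 bp, against 5500 bp for all regions, and 15000 bp against 5500 bp for those at a start site. A length of 20 kb or more was reached by 13 collagen regions (16.7%), against 6.99% of all regions. The longest lay over the start of Col5a1 (chr2:27881001-27947000), which encodes a chain of the type V collagen that nucleates fibrils, and ran 66000 bp from 5424 bp before the start into the gene. Per kb, the median was 2.54 RPM in collagen regions and 2.70 RPM in all regions, and 2.80 against 3.04 RPM at start sites. Summed per gene, collagen genes with a region held a median 81.0 RPM, against 27.1 RPM for all genes with a region, whose median length was 24349 bp against 109689 bp for the collagens. The class medians per kb were 2.65 RPM in fibrillar, 2.49 RPM in basement membrane and 2.52 RPM in other collagens, while single regions ranged from 1.75 RPM per kb (Col5a2) to 4.32 RPM per kb (the fifth region of Col27a1, inside the gene).

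The regions of the type I chains spanned whole genes. At Col1a1, the region (chr11:94925501-94959000) covered all 51 exons, and at Col1a2 the region (chr6:4500501-4546500) covered all 54. Together these genes encode the chains of type I collagen, the fibre of bone. The region at Col3a1 (chr1:45308001-45323000) stopped after 4 of 51 exons, and the one at Col11a1 (chr3:114027501-114043500) after 1 of 68. The region at Col6a2 (chr10:76616501-76657500) reached 33870 bp upstream of the start. Starts of other genes lay in 6 collagen regions, namely those of Mff behind Col4a3, Adprhl2 and Tekt2 behind Col8a2, Pef1 behind Col16a1, Pfkfb4 and Ucn2 at the end of Col7a1, Phykpl at the end of Col23a1, and H2-Ke6, Ring1, Rxrb and Slc39a7 before Col11a2. In these 6 regions the mark cannot be assigned to the collagen gene. Counted by gene body, 9 collagen regions overlapped another gene, and the same limit holds there.

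The table tags every region with the letters Y, O and AC, alone or combined. No label explains them, and they were taken to stand for the groups Young, Old and OldAcetate. The Y code was on all 78 collagen regions and is missing from 0.0327% of all regions, so that the table holds almost no region listed for Old or OldAcetate without Young. Every value of Old against Young, for collagens as for all regions, is therefore taken almost wholly on regions listed with Young, and the part of this selection in a lower Old was not tested. All 3 codes were present for 61 collagen regions (78.2%, against 80.6% of all regions). The O code was missing for 15 collagen regions (19.2%, against 16.8%). These 15 had a median of 12.1 RPM, against 29.2 RPM for the other collagen regions. They comprised 4 fibrillar, 2 basement membrane and 9 other regions, among them the start-site regions of Col24a1 and Col10a1, and all 15 held reads in both Old libraries.

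In these regions, all of them listed with the Y code, summed RPM over the collagen genes was lower in Old than in Young, with a ratio close to that of all regions. Summed over the 78 regions, it was 3219 and 2782 RPM in Young replicates 1 and 2, 2449 and 2278 RPM in Old, and 2790 and 2751 RPM in OldAcetate. Both Old libraries lay below the other 4, and OldAcetate lay between Old and the mean of Young. The Old mean was 78.8% of the Young mean (all regions 78.1%), OldAcetate was 117% of Old (all regions 119%) and 92.3% of Young (all regions 92.6%). As a share of all reads in regions, collagens took 0.489% ± 0.0106 in Young, 0.493% ± 0.00384 in Old and 0.488% ± 0.00125 in OldAcetate (mean ± SD, n = 2 each). Young overlapped both other groups, and both Old shares lay above both OldAcetate shares.

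The 3 classes had similar ratios of RPM between Old and Young. Fibrillar collagens summed to 1283 and 1131 RPM in Young, 959 and 932 RPM in Old and 1165 and 1101 RPM in OldAcetate. Basement membrane collagens summed to 537 and 455 RPM in Young, 428 and 344 RPM in Old and 393 and 439 RPM in OldAcetate. Other collagens summed to 1398 and 1196 RPM in Young, 1063 and 1002 RPM in Old and 1232 and 1210.4 RPM in OldAcetate. The Old mean was thus 78.3%, 77.8% and 79.6% of Young in these 3 classes. OldAcetate was 119.9% and 118% of Old in fibrillar and other collagens without overlap of the groups, and 108% in basement membrane collagens, where OldAcetate replicate 1 lay below Old replicate 1.

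**Figure D3:**
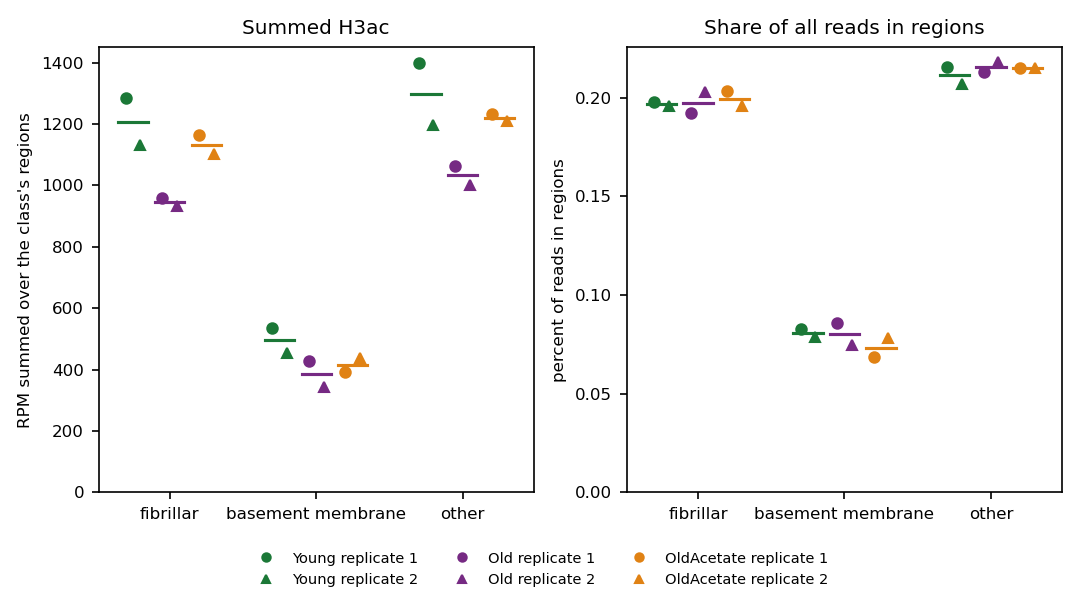
RPM summed over the regions of each collagen class (left) and the class's percent of all reads in regions (right) in the 6 libraries, with group means as bars. In RPM both Old libraries lie below both Young libraries in every class, while the percent shares of Young and Old overlap in all 3 classes and those of Young and OldAcetate do not overlap in basement membrane collagens.

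In 48 of the 78 collagen regions (61.5%) both Old libraries lay below both Young libraries, against 60.2% of all regions, with all of the former and nearly all of the latter listed with the Y code. Both OldAcetate libraries lay above both Old libraries in 38 (48.7%, against 47.1%), and below both Young libraries in 22 (28.2%, against 29.8%). By class, Old lay below Young without overlap in 17 of 26 fibrillar, 7 of 11 basement membrane and 24 of 41 other regions. OldAcetate lay above Old without overlap in 13 of the 26, 2 of the 11 and 23 of the 41 regions. The shares of the whole collagen set were thus close to the background in each comparison.

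Single regions were tested with limma on log2(RPM + 0.5) after each library was centred on the median of all regions, which removes a shift common to all regions. Without this scaling the median over all regions was -0.35 for Old vs Young, 0.24 for OldAcetate vs Old and -0.11 for OldAcetate vs Young, and over the collagen regions it was -0.35, 0.23 and -0.13. After scaling the collagen median was -0.00, -0.01 and -0.02, with 39, 37 and 37 of the 78 regions above 0. Relative to the shift of all regions, the median of collagen H3ac was therefore not displaced in either direction. At start sites the scaled medians were 0.006, 0.020 and 0.005 for collagens, against -0.007, 0.049 and 0.046 for all start-site regions, a difference that was not tested. No collagen region passed the adjusted p threshold of 0.05 in limma in any of the 3 comparisons, where 0.00819%, 0% and 0% of all regions did, and edgeR with RLE or TMM factors also called 0. An unadjusted p under 0.05 was reached by 3, 4 and 4 collagen regions (3.85%, 5.13% and 5.13%), against 5.54%, 6.24% and 5.08% of all regions. Summed per gene, 0 of the 32 genes were called by limma (0%, 0% and 0% of all 14155 genes), by edgeR 0 as well, and 2, 3 and 1 of the 32 had an unadjusted p under 0.05 (6.25%, 9.38% and 3.12%, against 5.15%, 5.91% and 5.09% of all genes).

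Without scaling, limma called 9 collagen regions lower in Old than in Young (11.5%, against 9.5% of all regions), and 0 higher in OldAcetate than in Old (against 0.311%). The 9 regions lay at starts of Col1a1, Col5a1, Col11a1, Col6a2, Col12a1, Col28a1 and the Col4a1 and Col4a2 pair, inside Col4a2 and before Col11a2. Summed per gene, 15 of 32 genes were lower in Old (46.9%, against 33.1% of all genes, whose median summed RPM is lower), and 3, Col1a1, Col6a2 and Col12a1, were higher in OldAcetate (9.38%, against 7.52%). These calls depended on which libraries entered, for collagens and for the whole table. Without Young replicate 1, 0 collagen regions and 0 genes were lower in Old (0.0368% of all regions and 0.558% of all genes). Without Young replicate 2 there were 11 regions and 18 genes (8.69% and 32.7% of all), and without Old replicate 2 there were 4 regions and 4 genes (2.01% and 8.34%). The calls higher in OldAcetate, of genes and of regions, also changed with the library left out, for collagens and for the whole table. Their ranges are given in the closing section. Leaving out OldAcetate replicate 1 or 2, neither of which is in this comparison, gave 4 and 5 regions lower in Old (2.62% and 2.95% of all), and leaving out Old replicate 1 gave 16 (13.3%).

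**Figure D4:**
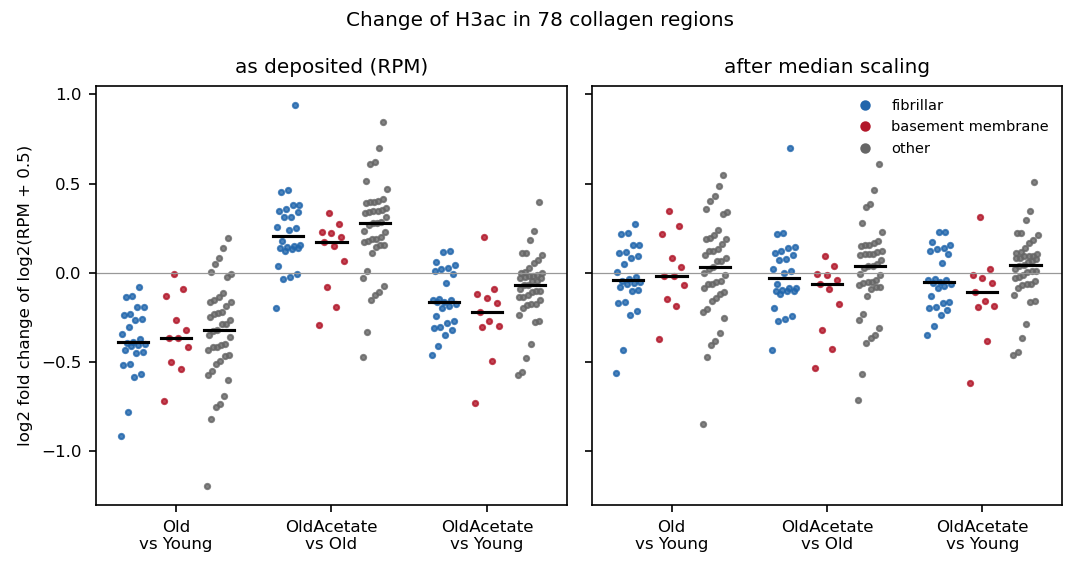
Log2 fold change of the 78 collagen regions by class in the 3 comparisons, from log2(RPM + 0.5) as deposited (left) and after median scaling (right), with 1 point per region and black bars for class medians. On the left all 26 fibrillar, all 11 basement membrane and 36 of the 41 other regions lie below 0 in Old vs Young. Of all 24431 regions, which are not drawn, 22513 lie below 0 there. On the right the class medians lie between -0.11 and 0.04.

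By class, the scaled medians in Old vs Young were -0.04 in fibrillar (11 of 26 regions above 0), -0.02 in basement membrane (5 of 11) and 0.03 in other collagens (23 of 41). In OldAcetate vs Old they were -0.03, -0.07 and 0.04. After scaling, 9 of 11 basement membrane regions were below 0 there, against 12148 of all 24431 regions. In OldAcetate vs Young their median was -0.11, with 9 of 11 below 0, against 12141 of all regions. Without scaling, 8 of the 11 were above 0 in OldAcetate vs Old (median 0.17) and 10 below 0 in OldAcetate vs Young (median -0.22). These 2 comparisons share the OldAcetate libraries. Leaving out Old replicate 1 turned the first scaled median to 0.00090, and leaving out OldAcetate replicate 1 turned the second to 0.03. Among the smaller groups, the short-chain collagens had 8 regions, of which 5 belonged to Col8a1. In Old vs Young 7 of the 8 were above 0 (median 0.11), against 12024 of all 24431 regions. In OldAcetate vs Old 6 of the 8 were below 0 (median -0.07), against 12148 of all regions. These comparisons share the Old libraries. Without scaling the signs were reversed, with 7 of the 8 below 0 in Old vs Young and 6 above 0 in OldAcetate vs Old.

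At the type I and III chains, RPM was lowest in Old and no scaled change passed the test. The Col1a1 region held 94.8 and 74.3 RPM in Young, 65.2 and 59.3 RPM in Old and 82.7 and 88.0 RPM in OldAcetate. Both Old libraries were the lowest, and OldAcetate lay within the range of Young. After scaling, its log2 fold change for Old vs Young was -0.08 (SE 0.11, limma adjusted p = 0.964), and that for OldAcetate vs Old was 0.21 (SE 0.11, adjusted p = 0.811). The Col1a2 region held 129.6 and 131 RPM in Young, 106 and 112 RPM in Old and 126 and 134 RPM in OldAcetate. Its replicates lay close together, and the scaled changes were 0.09 (SE 0.09) and 0.01 (SE 0.09). At Col3a1 the values were 41.1 and 46.2 RPM in Young, 37.0 and 37.0 RPM in Old and 45.7 and 48.8 RPM in OldAcetate, with both Old libraries the lowest. Scaled changes of 0.12 (SE 0.15) and 0.11 (SE 0.15) stayed within their errors.

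Among the cartilage fibril genes, the start of Col2a1 (chr15:98000001-98007500), the main collagen of cartilage, was dense at 4.03 RPM per kb. It held 39.2 and 30.2 RPM in Young, 39.8 and 18.3 RPM in Old and 28.9 and 25.0 RPM in OldAcetate. The Old replicates thus differed more than the groups did, and the scaled changes were 0.01 (SE 0.20) and -0.24 (SE 0.20). The Col11a1 region, over the start of a chain that sets fibril diameter, held 68.4 and 64.5 RPM in Young, 41.6 and 48.1 RPM in Old and 59.1 and 57.6 RPM in OldAcetate. The 3 groups did not overlap, but the scaled changes of -0.22 (SE 0.13, limma adjusted p = 0.907) and 0.14 (SE 0.13, adjusted p = 0.919) did not pass. The Col11a2 start (chr17:34036501-34041500) had only 16 to 50 reads, with 16.5 and 8.58 RPM in Young, 7.40 and 9.94 RPM in Old and 8.06 and 11.3 RPM in OldAcetate. All groups overlapped there, with scaled changes of -0.10 (SE 0.29) and -0.09 (SE 0.29).

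The stretch before Col11a2 (chr17:34023001-34034500), which holds the starts of Ring1, Rxrb, Slc39a7 and H2-Ke6, had one of the 2 lowest p in Old vs Young among the collagen regions. It held 60.2 and 49.4 RPM in Young, 30.0 and 33.0 RPM in Old and 49.1 and 38.8 RPM in OldAcetate. Old was the lowest in both libraries, and the scaled change was -0.43 (SE 0.15, limma adjusted p = 0.808). Its change in OldAcetate vs Old was 0.23 (SE 0.15). Without scaling it was called in the fits that left out each of 5 of the 6 libraries.

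The long regions at the type V chains held 243 to 585 reads. At Col5a1 the region held 192 and 179 RPM in Young, 143 and 136 RPM in Old and 179 and 156 RPM in OldAcetate. The scaled changes, -0.06 (SE 0.08) and 0.02 (SE 0.08), were within their errors of 0, although Old lay below the other groups in RPM. At the start of Col5a2 (chr1:45447501-45505500), the values were 154 and 121 RPM in Young, 112 and 127 RPM in Old and 163 and 136 RPM in OldAcetate. Young and Old overlapped there, and the scaled change for Old vs Young was 0.16 (SE 0.09), and that for OldAcetate vs Old was 0.07 (SE 0.09). In OldAcetate vs Young, where it had one of the 2 lowest p, the change was 0.23 (SE 0.09, limma adjusted p = 0.964).

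Of the type IV genes, the region shared by the Col4a1 and Col4a2 starts (chr8:11309001-11316000) held 32.9 and 32.7 RPM in Young, 20.8 and 18.7 RPM in Old and 22.5 and 23.8 RPM in OldAcetate. Both OldAcetate libraries lay above both Old libraries and below both Young libraries. For Old vs Young the scaled change was -0.37 (SE 0.19, limma adjusted p = 0.894), and for OldAcetate vs Old it was -0.01 (SE 0.19). A region behind Col4a1 (chr8:11182001-11194500) held 28.3 and 20.8 RPM in Young, 25.0 and 23.5 RPM in Old and 17.1 and 22.5 RPM in OldAcetate. It had the lowest p of the family in OldAcetate vs Old, with -0.53 (SE 0.20, adjusted p = 0.734), and its change in Old vs Young was 0.35 (SE 0.20).

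The region inside Col4a4 (chr1:82457501-82464000) held 27.0 and 20.4 RPM in Young, 15.7 and 16.3 RPM in Old and 16.1 and 12.1 RPM in OldAcetate. Here too Young was the highest, while OldAcetate replicate 1 lay between the Old libraries and replicate 2 below both. Its scaled changes were -0.19 (SE 0.22) for Old vs Young, -0.43 (SE 0.22) for OldAcetate vs Old and -0.62 (SE 0.22, limma adjusted p = 0.964) for OldAcetate vs Young, the last with the lowest p of the family in that comparison. The region behind Col4a3 that also holds the Mff start (chr1:82724001-82727500) held 14.5 and 13.9 RPM in Young, 10.6 and 11.9 RPM in Old and 14.4 and 11.7 RPM in OldAcetate, with scaled changes of 0.03 (SE 0.25) and -0.04 (SE 0.25).

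**Figure D5:**
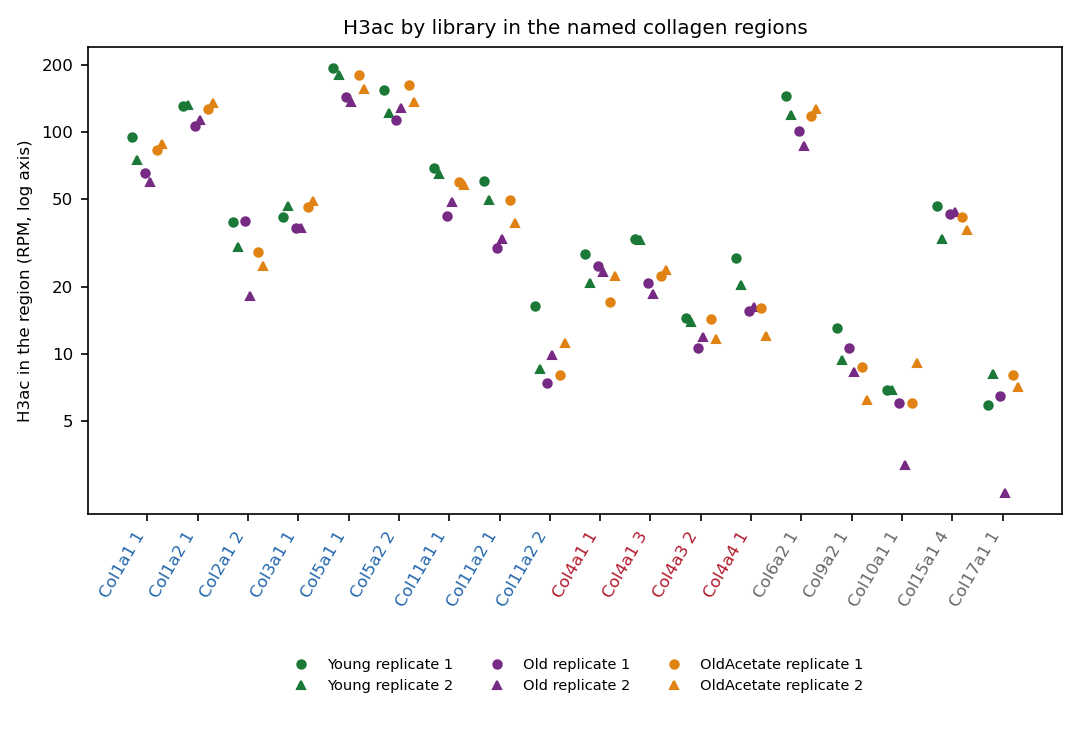
RPM (log axis) in the 18 collagen regions described by library, with circles for replicate 1 and triangles for replicate 2, coloured by group. Regions are numbered along the chromosome within each gene, and their labels are blue for fibrillar, red for basement membrane and grey for other collagens. Old libraries are the lowest at Col1a1, Col11a1 and Col6a2, and all groups overlap at the start of Col11a2.

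Among the other collagens, the Col6a2 region held 144 and 119 RPM in Young, 100.3 and 85.9 RPM in Old and 117 and 127 RPM in OldAcetate. Old was lowest without overlap, and the scaled changes were -0.14 (SE 0.09, limma adjusted p = 0.913) and 0.15 (SE 0.09, adjusted p = 0.869). A region over the end of Col15a1 (chr4:47306501-47319500), a multiplexin of basement membrane zones, held 46.4 and 33.1 RPM in Young, 42.5 and 43.7 RPM in Old and 41.3 and 36.3 RPM in OldAcetate. Of the 78 regions it had the smallest p for Old vs Young, and it was among the 2 with the smallest for OldAcetate vs Old. The Old values lay within the range of Young. Its scaled change was 0.49 (SE 0.15, limma adjusted p = 0.737) for Old vs Young and -0.39 (SE 0.15, adjusted p = 0.734) for OldAcetate vs Old, comparisons that share the Old libraries.

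The remaining regions described were thin. The start of Col9a2 (chr4:121039001-121042000) had 15 to 40 reads, with 13.2 and 9.39 RPM in Young, 10.6 and 8.35 RPM in Old and 8.74 and 6.26 RPM in OldAcetate. Young and Old overlapped, and OldAcetate lay below Young, with scaled changes of 0.12 (SE 0.29) and -0.57 (SE 0.29, limma adjusted p = 0.81). The start of Col10a1 (chr10:34388501-34391000), the collagen of hypertrophic cartilage, had 8 to 22 reads, with 6.91 and 6.94 RPM in Young, 6.01 and 3.18 RPM in Old and 6.05 and 9.18 RPM in OldAcetate. Both Old libraries were the lowest there, and the scaled changes were -0.25 (SE 0.37) and 0.46 (SE 0.37). The region inside Col17a1 (chr19:47658501-47660500), an epithelial transmembrane collagen, had 6 to 24 reads, with 5.92 and 8.17 RPM in Young, 6.47 and 2.39 RPM in Old and 8.06 and 7.09 RPM in OldAcetate, and scaled changes of -0.38 (SE 0.39) and 0.61 (SE 0.39). At Col10a1 and Col17a1 the low value came from Old replicate 2, and no change passed the test.

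Of 42 genes that act on collagen chains, 39 had a region (92.9%, against 64.5% of all protein-coding genes). These were 16 of 17 genes for folding, modification and export, among them Serpinh1, the collagen chaperone, and the prolyl and lysyl hydroxylases P4ha1 and Plod2. All 7 genes for removal of propeptides, such as Bmp1 and Adamts2, all 5 lysyl oxidases, which cross-link fibrils, and all 7 receptors had a region, against 4 of 6 turnover genes. The 3 without a region were Colgalt2, Mmp9 and Mmp13. In limma after scaling, 0 of the 39 passed in any comparison and 1, 4 and 2 had an unadjusted p under 0.05 (2.56%, 10.3% and 5.13%, against 5.15%, 5.91% and 5.09% of all genes). The median scaled change was -0.05, -0.01 and 0.00.

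Without scaling, 19 of the 39 were lower in Old than in Young (48.7%, against 33.1% of all genes) and 6 higher in OldAcetate than in Old (15.4%, against 7.52%). Unscaled calls over all genes changed with the library left out, as described above. How far the calls of these 39 genes did so is not given here, and their excess over all genes was not tested. Loxl1, a lysyl oxidase, had a scaled change of 0.22 (SE 0.09, limma adjusted p = 0.796) in OldAcetate vs Old and of -0.11 (SE 0.09) in the comparison of Old with Young. Ctsk, the collagen-cleaving cathepsin, had the lowest p of this list, with a scaled change of -0.95 (SE 0.29, limma adjusted p = 0.64) in OldAcetate vs Old. Its region was thin, with 16.8 and 8.17 RPM in Young, 12.0 and 11.1 RPM in Old and 7.06 and 7.09 RPM in OldAcetate. The Young replicates thus lay on both sides of Old. Mmp2, a gelatinase, had -0.21 (SE 0.10) in OldAcetate vs Old and 0.23 (SE 0.10) in the comparison of Old with Young. Its region held 109.9 and 102.9 RPM in Young, 101.2 and 94.3 RPM in Old and 105.5 and 99.3 RPM in OldAcetate. In RPM both Old libraries thus lay below both Young libraries and overlapped OldAcetate, and the scaled signs hold only relative to the shift of all genes. These 3 genes were taken for their low p, and both comparisons share the Old libraries, so that a high or low value in Old moves the changes in opposite directions.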

How the data were processed

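H3ac CUT&RUN was measured in 6 libraries, and the submitters' processing notes name Bowtie2, Picard and mm10. The authors deposited 1 table of 24431 regions with a value per library. Its name speaks of RPKM, but the deposited values are RPM: in all 6 columns 100% were whole multiples, within 0.01, of the value of 1 read, which gave library totals of 2163351 to 3039481 reads and 31 to 56 reads in the median region. Yeast DNA was added at the stop step, and whether it was used for scaling is not given in the sources used here. The paper describes another experiment, so no design was taken from it.

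Genes came from GENCODE vM21, and a start-site region lay within 1 kb of an annotated start. Values were set to log2(RPM + 0.5), centred on each library's median deviation over all regions and fitted over the 3 groups with limma 3.58.1 (R 4.3.3, trend and robust), with Benjamini-Hochberg adjustment over all 24431 regions or 14155 gene sums at 0.05. SE is that of the log2 fold change. The fits were tested on simulated data. Counting and figures used Python 3.11.15 and matplotlib 3.10.9.

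Values by library were given for regions of Col1a1, Col1a2, Col3a1, Col2a1 and Col10a1, of the 3 genes with the highest RPM per kb in each class, for the longest region and for the 2 regions with the lowest p in each comparison. The members and lists were chosen with earlier results of these data known. Alternatives were no scaling, quantile normalization, edgeR 4.0.16 on the recovered reads with RLE, TMM or no factors, pseudocounts of 0.1 and 1, removal of the lowest 25% of regions, a threshold of 0.01, limma without trend, only the 4 libraries compared, a replicate block, extensions of 0 and 50 kb, start-site regions only, a wider basement membrane class and each library left out.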

Additional observations from a re-analysis of the deposited data

How the results depend on the processing

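With 2 libraries a group, the depth of 4 to 585 reads a region and no input or unmarked control among the libraries used, small changes at single regions could not be resolved. Leaving out 1 library leaves a group with 1 sample, which is then assumed to vary like the others. Whether the listed regions were called per library or on pooled reads is not given in the sources used here, and neither is whether yeast DNA was used for scaling, so a global shift in H3ac and a shift in background reads cannot be told apart. Where a value below changed, the cause was not tested unless the setting itself is one of fewer libraries or no scaling. Regions are numbered along the chromosome within a gene.

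No collagen region or gene was called in the 3 comparisons with limma after scaling, with quantile normalization or with edgeR using RLE or TMM factors. Without scaling, limma called 9 regions and 15 genes in Old vs Young and 3 genes in OldAcetate vs Old, and edgeR without factors called 12 regions, 15 genes and 2 genes. The shares of all regions and genes called by edgeR without factors are not given here, so that its counts have no background. Leaving out each library in these unscaled fits was chosen after seeing the data. It gave 0 to 16 regions lower in Old, 0 to 18 genes lower in Old, 0 to 1 regions higher in OldAcetate and 0 to 3 genes higher in OldAcetate. Over all features the shares called ranged over 0.0368% to 13.3% of regions and 0.558% to 32.7% of genes lower in Old, and over 0% to 1.81% of regions and 0% to 12.6% of genes higher in OldAcetate.

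Without scaling, the median change in Old vs Young, OldAcetate vs Old and OldAcetate vs Young was -0.35, 0.23 and -0.13 in all collagens, and -0.39, 0.21 and -0.16 in fibrillar, and -0.37, 0.17 and -0.22 in basement membrane, and -0.32, 0.28 and -0.070 in other.

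Leaving out each library moved the scaled median of basement membrane regions over -0.10 to 0.088, -0.26 to 0.00090 and -0.26 to 0.034 in these comparisons, and that of fibrillar regions over -0.081 to 0.070 in Old vs Young and -0.069 to 0.075 in OldAcetate vs Old. With Col7a1, Col15a1 and Col18a1 added to the basement membrane class, its median in OldAcetate vs Young was -0.028.

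The difference in the share of reads in regions, in percentage points, ranged without 1 library over -0.00294 to 0.0120 for all collagens and -2.88e-05 to 0.00860 for other collagens in Old vs Young, and over -0.00857 to 0.00636 and -0.000611 to 0.00802 in OldAcetate vs Young. With start-site regions only, it was 0.00528 for all collagens, 0.00365 for other and -0.000793 for basement membrane collagens in OldAcetate vs Old, -0.00108 for basement membrane collagens in OldAcetate vs Young and -0.00389 for other collagens in Old vs Young. With gene bodies extended by 50 kb there were 141 regions and 7 genes without one.

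Without scaling, the sign in Old vs Young turned at region 1 of Col1a2 (-0.26), region 1 of Col3a1 (-0.23), region 2 of Col2a1 (-0.34), region 2 of Col4a3 (-0.32), region 1 of Col9a2 (-0.23), region 1 of Col4a1 (-0.0048), region 2 of Col5a2 (-0.19). Without scaling, the sign in OldAcetate vs Old turned at region 2 of Col11a2 (0.14), region 2 of Col4a3 (0.20), region 3 of Col4a1 (0.23). With edgeR without factors, the sign in Old vs Young turned at region 1 of Col1a2 (-0.26), region 1 of Col3a1 (-0.23), region 2 of Col2a1 (-0.30), region 2 of Col4a3 (-0.33), region 1 of Col9a2 (-0.28), region 1 of Col4a1 (-0.040), region 2 of Col5a2 (-0.21). With edgeR without factors, the sign in OldAcetate vs Old turned at region 2 of Col11a2 (0.12), region 2 of Col4a3 (0.22), region 3 of Col4a1 (0.23). With quantile normalization, the sign in Old vs Young turned at region 2 of Col2a1 (-0.0017). With quantile normalization, the sign in OldAcetate vs Old turned at region 1 of Col1a2 (-0.011), region 1 of Col5a1 (-0.0070). With RLE factors, the sign in OldAcetate vs Old turned at region 1 of Col1a2 (-0.0032). With TMM factors, the sign in OldAcetate vs Old turned at region 1 of Col1a2 (-0.00057). Without 1 library, the scaled change in Old vs Young changed sign at region 1 of Col10a1 (-0.60 to 0.10), region 2 of Col11a2 (-0.47 to 0.27), region 1 of Col17a1 (-0.96 to 0.19), region 1 of Col1a1 (-0.17 to 0.012), region 1 of Col1a2 (-0.010 to 0.20), region 2 of Col2a1 (-0.48 to 0.49), region 1 of Col3a1 (-0.047 to 0.28), region 2 of Col4a3 (-0.11 to 0.17), region 1 of Col9a2 (-0.028 to 0.27). Without 1 library, the scaled change in OldAcetate vs Old changed sign at region 1 of Col11a1 (-0.024 to 0.31), region 2 of Col11a2 (-0.36 to 0.17), region 1 of Col1a2 (-0.091 to 0.12), region 2 of Col2a1 (-0.73 to 0.24), region 3 of Col4a1 (-0.065 to 0.038), region 2 of Col4a3 (-0.18 to 0.10), region 1 of Col5a1 (-0.070 to 0.11), region 2 of Col5a2 (-0.076 to 0.23).

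Region by region, the replicate numbers showed no pairing of the samples (correlations of deviations 0.01, -0.03 and -0.04). A shift common to a whole library does not enter these correlations. The median deviation removed by scaling was higher for replicate 1 than for replicate 2 within each group. The values were 0.243 against 0.0817 (Young), -0.128 against -0.248 (Old), 0.0622 against 0.0393 (OldAcetate). Whether equal replicate numbers share a batch was not tested. With the replicate block, 0 collagen regions and 0 genes were called in each comparison and the collagen median was -0.00, -0.01 and -0.02.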
